A study of Mus musculus with 7 samples.

Results

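Liver makes fatty acids from the carbon of carbohydrates, and 10 genes of this route were examined in livers with and without the Notch effector *Rbpj*. They are *Srebf1*, *Acly*, *Acaca*, *Acacb*, *Fasn*, *Scd1*, *Elovl3*, *Elovl5*, *Elovl6* and *Me1*, chosen by name for their role in fatty acid synthesis and elongation. Their names matched 17 probes of 55681 on the array, which carries 35715 gene names in all, and all 17 probes could be tested. RNA of whole liver came from C57BL/6J mice at the age of 4 weeks, with 1 array per animal. The *Rbpj*+/+ group held 4 *AlfpCre*- *Rbpj* flox/flox mice (first Rbpj +/+_1155, then Rbpj +/+_1156, next Rbpj +/+_1024 and Rbpj +/+_991 last) without cholestasis, and the *Rbpj*-/- group 3 *AlfpCre*+ *Rbpj* flox/flox mice (first Rbpj -/-_N3, then Rbpj -/-_N5 and last Rbpj -/-_2866), which were cholestatic. Values of single animals are given in this order throughout. All 7 animals were untreated and carried both floxed alleles. The *Alfp* promoter drives Cre in the hepatoblasts of the embryo, from which hepatocytes and bile duct cells arise, so that the deletion covers both, while blood, stellate and endothelial cells keep the gene.

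In this route, citrate leaves the mitochondria and is cleaved by ATP citrate lyase (*Acly*) to acetyl-CoA, which the acetyl-CoA carboxylases (*Acaca*, *Acacb*) turn into malonyl-CoA. Fatty acid synthase (*Fasn*) builds palmitate from it with NADPH, part of which comes from the malic enzyme *Me1*. Elongases of the *Elovl* family then lengthen the chains and desaturases such as *Scd1* put in double bonds. The transcription factor SREBP-1, encoded by *Srebf1*, is known as the main activator of these genes under insulin.

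Throughout, a level is the log2 intensity of a probe minus the 75th percentile of its array, and levels are compared between animals and never between probes. The deleted gene was lower in *Rbpj*-/- liver, as its brightest probe (A_66_P139267, mm9 chr5:54048503-54048562) read 0.97, 0.29, 0.33 and 0.81 against −0.35, −0.78 and −0.48, with a log2 fold change of −1.13 ± 0.24 (SE, adjusted p = 0.0115, limma). A dimmer probe, which the design places on chromosome 6, gave −1.63 (adjusted p = 0.0723, limma). In whole liver, fewer cells of a type and less RNA per cell cannot be told apart. Between 41.1% and 64.9% of the probes of an array gave a signal well above background. All 7 arrays lay on the same slide, with the *Rbpj*+/+ arrays in one row and the *Rbpj*-/- arrays in the other, so that row and genotype cannot be told apart. Cell type markers moved with the genotype too. Of 8 hepatocyte markers, 5 were lower and none was higher at an adjusted p below 0.1 (limma), the threshold for all markers here. *Alb* was lower by −0.78, while *Hnf4a* at −0.32, *Tat* at 0.52 and *Cps1* at 0.94 did not pass. The summed level of the 8, as the mean over the list, lay at 7.96 to 8.63 in *Rbpj*+/+ and 7.78 to 8.08 in *Rbpj*-/- animals. Before the shift, *Alb* intensities were 66329 to 100250 in *Rbpj*+/+ and 70785 to 81831 in *Rbpj*-/- animals. The 75th percentile itself was 57.5 to 103 and 118 to 143, and its part in these changes was not tested. Of 6 macrophage markers, 5 were higher (2.31 to 2.87 against 4.35 to 4.60), as were 3 of 5 stellate markers (1.36 to 1.67 against 2.16 to 2.95), 2 of 3 tested neutrophil markers (−1.45 to 1.60 against 1.68 to 2.85) and 2 of 4 tested cholangiocyte markers (−1.13 to −0.39 against −0.67 to 0.51). All 3 tested lymphocyte markers were lower (−0.49 to 0.15 against −2.96 to −1.45), and of 4 endothelial markers 1 was higher and 1 lower. The lower one, *Kdr*, gave −1.19 (adjusted p = 0.00689, limma) on its brightest probe. Its other probe gave 0.01 (adjusted p = 0.973, limma), so that its direction was not settled. The part of these cells in the values of the 10 genes was not tested. Of the adipocyte markers, *Lep* and *Plin1* were above background on 0 of 7 arrays, and *Adipoq* and *Cfd* on 1 *Rbpj*+/+ and 1 *Rbpj*-/- array each, while *Cidec* and *Fabp4*, which are not confined to fat cells, were higher by 1.31 and 1.14.

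Of the 10 genes, *Elovl3*, *Acacb* and *Me1* had a lower signal after deletion of *Rbpj*, none had a higher one, and 7 did not pass the threshold of 0.1 on the p-value of limma after Benjamini-Hochberg adjustment over all tested probes. Over all 18770 tested genes, 34.2% passed, with 19.6% lower and 14.6% higher, so that the count of 3 in 10 lies close to the background. The values of 3 of the 10 genes did not overlap between the genotypes, against 36.6% of all genes. Log2 fold changes had a median of −0.06 for the 10 genes, against −0.13 for all genes. The 10 genes ranged from *Elovl3*, whose signal was down to background in every *Rbpj*-/- animal, to *Acly*, *Acaca* and *Elovl6*, which differed by less than 0.1 on the log2 scale. The plot of the 10 genes by array shows this range.

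**Figure D1:**
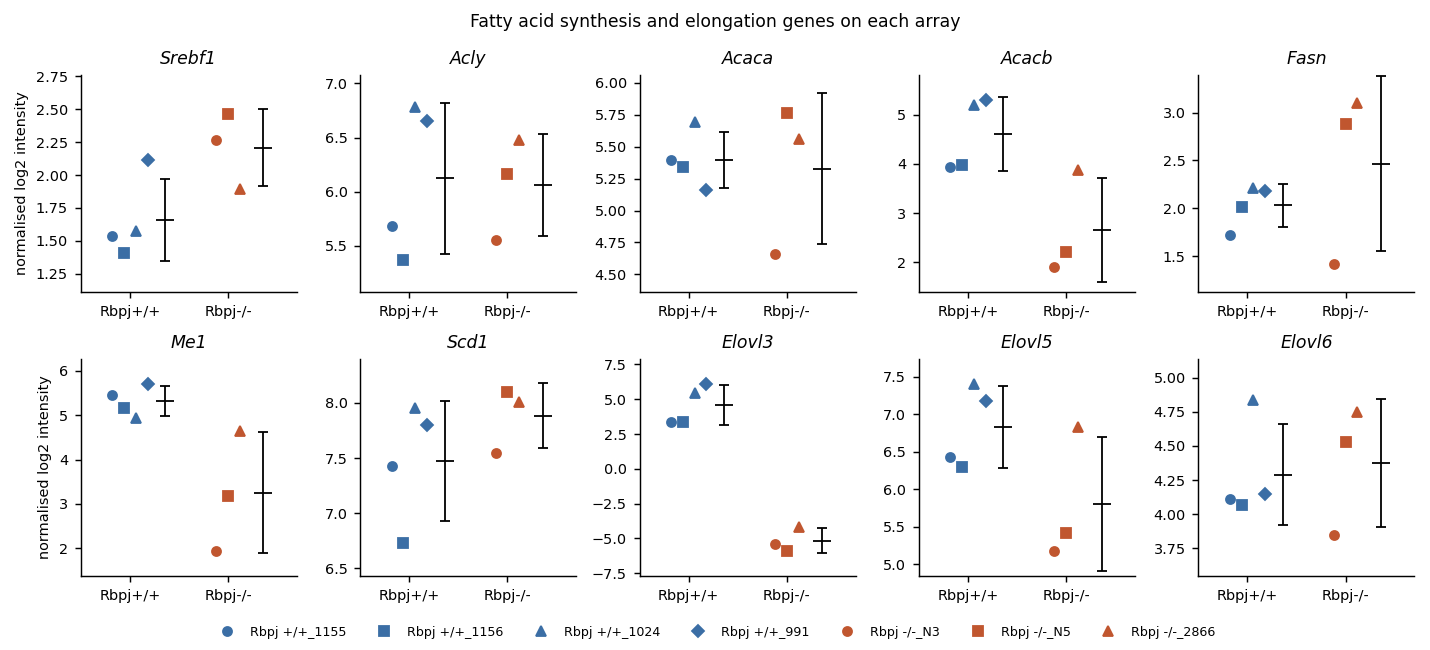
Level of each of the 10 genes on each array, as log2 intensity minus the 75th percentile of the array, with blue symbols for the 4 *Rbpj*+/+ and orange symbols for the 3 *Rbpj*-/- animals and black bars for the mean ± SD. Each panel has its own scale. The groups do not overlap for *Acacb*, *Me1* and *Elovl3*, and *Elovl3* lies near −5 on all 3 *Rbpj*-/- arrays.

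The promoters of members that were lower are set here beside those of members that did not pass, because both kinds share the same route. RefSeq windows (GRCm38.p6) of 250 bases before to 50 after a start site were matched by symbol for 8 of the 10 genes, in 11 windows. *Elovl3* and *Scd1* were not matched. The 250 bases before the start are printed 5′ to 3′ on the strand of the gene, with capitals for every match to GGGCGG (bound by Sp1), CCAAT (NF-Y), CACGTG (the E-box), TCACNCCAC (a sterol regulatory element) or TGGGAA (RBPJ) on either strand. *Acacb* (chr5:114165268-114165517, plus strand) and *Me1* (chr9:86695915-86696164, minus strand, the first of its 2 windows) were lower. *Fasn* (chr11:120824548-120824797, minus strand) and *Srebf1* (chr11:60220628-60220877, minus strand, the second of its 3 windows) did not pass. Which start sites these livers used was not analysed, so a printed window need not be the one active in liver.
Acacb: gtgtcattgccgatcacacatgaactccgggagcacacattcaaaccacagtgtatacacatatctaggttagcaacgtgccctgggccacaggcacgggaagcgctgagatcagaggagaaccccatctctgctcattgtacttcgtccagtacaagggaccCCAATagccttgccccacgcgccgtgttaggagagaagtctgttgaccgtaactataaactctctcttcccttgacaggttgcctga
Me1: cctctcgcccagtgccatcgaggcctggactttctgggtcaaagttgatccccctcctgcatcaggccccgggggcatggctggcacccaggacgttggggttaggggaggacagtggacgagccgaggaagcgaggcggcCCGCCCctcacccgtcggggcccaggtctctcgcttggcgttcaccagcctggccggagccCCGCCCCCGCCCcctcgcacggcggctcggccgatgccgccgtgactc
Fasn: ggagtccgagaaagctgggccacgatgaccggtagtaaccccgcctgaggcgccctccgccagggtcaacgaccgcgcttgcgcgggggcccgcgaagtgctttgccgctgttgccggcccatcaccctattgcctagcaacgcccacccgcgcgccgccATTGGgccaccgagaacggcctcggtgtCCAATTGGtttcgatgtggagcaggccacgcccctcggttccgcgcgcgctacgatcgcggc
Srebf1: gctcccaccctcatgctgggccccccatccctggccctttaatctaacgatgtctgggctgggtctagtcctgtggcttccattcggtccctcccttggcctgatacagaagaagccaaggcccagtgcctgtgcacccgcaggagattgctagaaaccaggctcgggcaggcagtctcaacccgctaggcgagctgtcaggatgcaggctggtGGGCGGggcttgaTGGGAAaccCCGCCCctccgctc

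CCAAT was found in 7 of the 11 windows, at *Srebf1*, *Acly*, *Acacb*, *Fasn*, *Me1* and *Elovl5*, and in 37.4% of all 32851 RefSeq windows. At *Srebf1* and *Me1* it lies only in windows that are not printed. The windows of *Fasn*, with 3 matches, and of *Acacb*, with 1 match, both hold it, and of these genes *Acacb* passed the threshold and *Fasn* did not. GGGCGG was found in 4 of the 11 windows, at *Srebf1*, *Acly* and *Me1*, against 35.7% of all windows. The first *Me1* window holds 4 matches, 3 of them in the printed part. TGGGAA was found in 3 windows, those of *Acaca* and 2 of *Srebf1*, against 25.6% of all windows, and neither gene passed the threshold. CACGTG was found at *Elovl5* alone, against 7.15% of all windows, and TCACNCCAC in none of the 11 windows, against 1.24%. Overlapping matches were counted singly, no printed match belongs to more than 1 of these motifs, and a match describes letters and not a bound site.

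*Elovl3*, an elongase of saturated and monounsaturated long chains, showed the largest difference of the 10 genes. Its probe A_51_P324633 (mm9 chr19:46209762-46209821) had intensities of 1053, 886, 2508 and 5183 in the *Rbpj*+/+ animals and of 3.43, 2.16 and 6.51 in the *Rbpj*-/- animals. It exceeded the background clearly in 4 of 4 *Rbpj*+/+ animals and in 0 of 3 *Rbpj*-/- animals. All *Rbpj*+/+ values lay far above all *Rbpj*-/- values, and the *Rbpj*+/+ animals differed among themselves by several fold. The mean level was 4.57 ± 1.42 (SD, n = 4) with *Rbpj* and −5.16 ± 0.89 (SD, n = 3) without it. Since no *Rbpj*-/- array measured it, the signal was at least 294-fold lower, set against the dimmest probes well above background, with an adjusted p of 0.000229 (limma) and an exact two-sided permutation p of 0.0286, the smallest that 4 against 3 animals allow. The gene was tested through the *Rbpj*+/+ arrays alone, and both p-values rest on background signal in *Rbpj*-/- liver.

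*Elovl5*, which elongates polyunsaturated chains, had a lower mean in *Rbpj*-/- liver without passing the threshold, and *Elovl6*, which elongates palmitate, hardly differed. The *Elovl5* level (mm9 chr9:77832205-77832264) was 6.43, 6.30, 7.41 and 7.18 in the *Rbpj*+/+ animals and 5.17, 5.41 and 6.83 in the *Rbpj*-/- animals. Its log2 fold change of −1.02 ± 0.44 (SE) did not pass (adjusted p = 0.120, limma), and Rbpj -/-_2866 lay within the *Rbpj*+/+ range. Without that animal it was −1.54 with an adjusted p of 0.0290. The *Elovl6* level (mm9 chr3:129341248-129341307) was 4.11, 4.07, 4.84 and 4.15 against 3.85, 4.53 and 4.75, with overlapping groups and a log2 fold change of 0.08 ± 0.29 (SE, adjusted p = 0.854, limma). The difference between the changes was also taken within animals. Because *Elovl3* was not measured in *Rbpj*-/- liver, it was set at its bound there, a choice made after the data were seen. The change in the log2 ratio of *Elovl3* to *Elovl5* was then −7.18 or lower, with ratios of −3.07 to −1.07 in *Rbpj*+/+ and at most −10.49 to −8.48 in *Rbpj*-/- animals. For the ratio of *Elovl3* to *Elovl6* the change was −8.28 or lower, and each ratio gave an exact permutation p of 0.0286 at the bound. With *Elovl3* at background in every *Rbpj*-/- animal, that separation was largely set in advance, and these p-values add no support.

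The genes most like *Elovl3* over the 7 arrays, by Euclidean distance between levels centred on the *Rbpj*+/+ mean, were *Cyp4a12b* (distance 2.20), *Cyp4a12a* (2.78) and *Serpina4-ps1* (2.96). These distances include the background values of *Elovl3* in *Rbpj*-/- liver, so that their order carries little. *Elovl3* and the *Cyp4a12* genes are known to be higher in the liver of male than of female mice, and the labels give no sex. The Y-linked *Ddx3y* and *Eif2s3y* were well above background on 7 of 7 arrays, with levels of 2.11 to 2.76 and 2.32 to 2.84 in *Rbpj*+/+ and of 2.47 to 2.82 and 2.20 to 2.82 in *Rbpj*-/- liver. Of the other Y-linked genes looked up, *Uty* was above background on 7 and on 3 arrays by its 2 probes, and *Kdm5d* on 0. The 2 probes of *Xist*, which is transcribed from the inactive X chromosome of females, were above background on 1 and on 0 of the 7 arrays, and the 1 array was Rbpj +/+_1155. These sex-linked genes were looked up after the values of *Elovl3* had been seen.

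*Acacb* encodes the acetyl-CoA carboxylase of the mitochondrial outer membrane, whose malonyl-CoA restrains the entry of fatty acids into oxidation. Its brighter probe A_55_P2019054 (mm9 chr5:114700702-114700761) read 3.95, 3.97, 5.20 and 5.31 in *Rbpj*+/+ and 1.90, 2.21 and 3.88 in *Rbpj*-/- animals. The groups did not overlap, but Rbpj -/-_2866 came within 0.1 of the lowest *Rbpj*+/+ animal. The log2 fold change was −1.95 ± 0.53 (SE), 3.85-fold lower, with an adjusted p of 0.0314 (limma) and an exact permutation p of 0.0286. The second probe (A_55_P2104532, mm9 chr5:114699684-114699743) moved alike, with −2.27 ± 0.53 (SE, adjusted p = 0.0177, limma). Without Rbpj -/-_N3 or Rbpj -/-_N5, the gene was no longer called, at −1.57 (adjusted p = 0.108) and −1.72 (adjusted p = 0.117).

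*Acaca*, the carboxylase of the cytosol that serves synthesis, was read by 4 probes, none of which passed. The brightest, A_55_P2084706, read 5.40, 5.34, 5.69 and 5.16 in *Rbpj*+/+ and 4.66, 5.76 and 5.56 in *Rbpj*-/- animals, a log2 fold change of −0.07 ± 0.28 (SE, adjusted p = 0.878, limma). The array's design places this probe and A_55_P2084703 on chromosome 12 and the other 2 on chromosome 11. A_55_P2019058 (mm9 chr11:84215093-84215152) gave 0.02 ± 0.27 (SE), A_55_P2084703 gave 0.25 ± 0.28 (SE), and A_55_P2121392 (mm9 chr11:84009021-84009080) gave −0.30 ± 0.22 (SE). The log2 ratio of *Acaca* to *Acacb* was higher in *Rbpj*-/- liver by 1.88 ± 0.66 (SE, exact permutation p = 0.0286), with values of −0.14 to 1.45 in *Rbpj*+/+ and 1.69 to 3.56 in *Rbpj*-/- animals. Since *Acacb* alone already separated the genotypes and *Acaca* hardly differed, this p-value mostly restates the result of *Acacb*. The ratio was not taken with each animal left out.

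*Me1*, the cytosolic malic enzyme that yields NADPH, was lower on all 3 of its probes. A_55_P2009952 (mm9 chr9:86475077-86475136) read 5.47, 5.16, 4.95 and 5.71 in *Rbpj*+/+ and 1.94, 3.18 and 4.65 in *Rbpj*-/- animals. Every *Rbpj*-/- value lay below every *Rbpj*+/+ value, and the *Rbpj*-/- animals spread over a far wider range (SD 1.36, n = 3) than the *Rbpj*+/+ animals (SD 0.34, n = 4). The log2 fold change was −2.07 ± 0.54 (SE), 4.19-fold lower, with an adjusted p of 0.0264 (limma) and an exact permutation p of 0.0286. The other 2 probes, A_55_P2016842 (mm9 chr9:86480571-86480630) and A_55_P2171413 (mm9 chr9:86475215-86475274), gave −1.97 (adjusted p = 0.0273) and −1.81 (adjusted p = 0.0405).

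**Figure D2:**
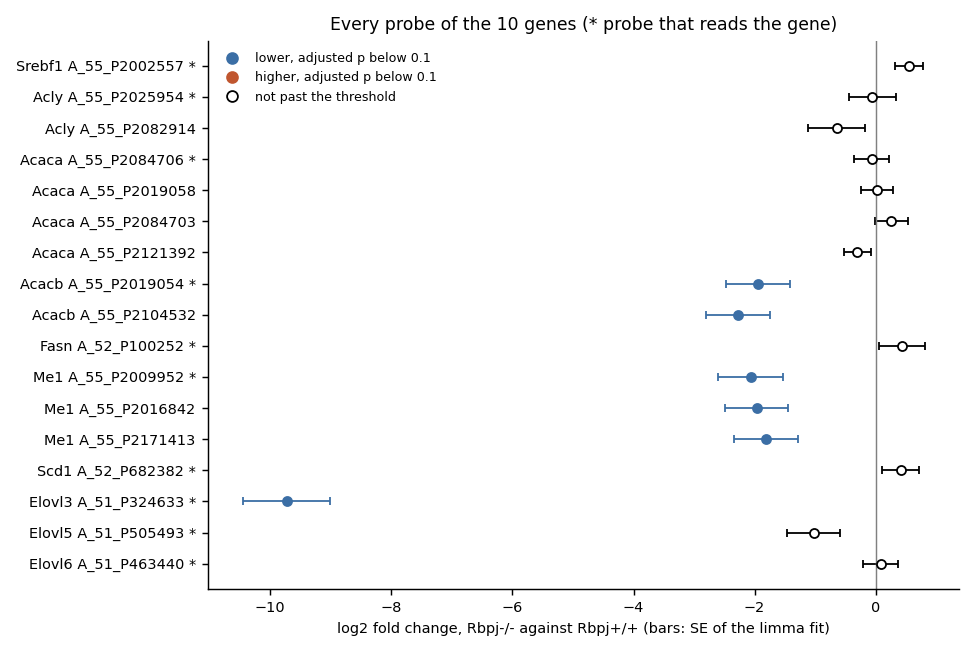
Log2 fold change of *Rbpj*-/- against *Rbpj*+/+ liver for all 17 probes of the 10 genes, with bars for the standard error of the limma fit. Filled points passed an adjusted p of 0.1, and an asterisk marks the probe that reads the gene. Both *Acacb* and all 3 *Me1* probes lie near −2, the *Elovl3* point is a fitted value for a probe not well above background in *Rbpj*-/- liver, and the 4 *Acaca* probes lie between −0.30 and 0.25.

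The genes at the start of the route and its transcription factor did not pass. *Srebf1* (mm9 chr11:60012664-60012723) read 1.54, 1.41, 1.58 and 2.11 in *Rbpj*+/+ and 2.27, 2.46 and 1.89 in *Rbpj*-/- animals, a log2 fold change of 0.55 ± 0.24 (SE, adjusted p = 0.124, limma). Rbpj +/+_991 alone overlapped the *Rbpj*-/- range, and without it the value was 0.70 (adjusted p = 0.0783). *Acly* (mm9 chr11:100337674-100337733) read 5.68, 5.37, 6.78 and 6.65 against 5.55, 6.16 and 6.48, a difference of −0.06 ± 0.39 (SE, adjusted p = 0.924, limma). A dimmer *Acly* probe, A_55_P2082914, gave −0.64 ± 0.47 (SE, adjusted p = 0.347, limma).

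*Fasn* (mm9 chr11:120667666-120667725), the synthase itself, read 1.72, 2.02, 2.21 and 2.18 in *Rbpj*+/+ and 1.42, 2.88 and 3.099 in *Rbpj*-/- animals. Rbpj -/-_N3 lay below and the other 2 *Rbpj*-/- animals above all *Rbpj*+/+ animals, and the log2 fold change was 0.44 ± 0.38 (SE, adjusted p = 0.427, limma), or 0.96 without Rbpj -/-_N3 (adjusted p = 0.0374). *Scd1* (mm9 chr19:44469387-44469446), the main stearoyl-CoA desaturase of adult liver, read 7.43, 6.73, 7.95 and 7.80 against 7.55, 8.10 and 8.01, with a log2 fold change of 0.41 ± 0.31 (SE, adjusted p = 0.361, limma). Its call depended on the scaling, as quantile normalisation gave 0.75 with an adjusted p of 0.0440.

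Levels of the members also shared an order of animals within each genotype. In 8 of the 10 genes, all but *Acaca* and *Me1*, Rbpj +/+_1024 and Rbpj +/+_991 both lay above the other 2 *Rbpj*+/+ animals, which was true of 25.3% of 18743 genes. Among the *Rbpj*-/- animals, where *Elovl3* has no order, Rbpj -/-_N3 was the lowest in 8 of the other 9 genes, all but *Srebf1*, against 46.4% of genes. Rbpj -/-_2866 was the highest in 6 of the 9, against 37.0% of genes, among them *Acacb*, *Me1* and *Elovl5*, for which it was the *Rbpj*-/- animal nearest to the *Rbpj*+/+ level. Arrays Rbpj -/-_N3 and Rbpj +/+_1156 also had brighter dim probes, with a median intensity of 29.6 and 18.7 against 4.99 to 7.75 on the other 5 arrays, and the part of this in the values of Rbpj -/-_N3 was not tested. The subtracted 75th percentile was 103, 85.5, 57.5 and 74.8 in the *Rbpj*+/+ animals and 143, 130 and 118 in the *Rbpj*-/- animals. In intensities before this shift, *Acly*, *Acacb*, *Elovl3* and *Elovl5* kept the *Rbpj*+/+ order, while *Srebf1*, *Fasn*, *Scd1* and *Elovl6* did not. The *Rbpj*-/- orders held before the shift, and the part of the shift in these orders was not tested. The patterns were noticed in these values and are given as a description.

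The genes most like *Acacb* over the 7 arrays were a transcript that the array names by its position only (probe A_30_P01031441, distance 0.672, log2 fold change −1.90), *Tex22* (0.717, −1.83) and *Cml1* (0.813, −1.86). Those most like *Me1* were *Alas2*, the heme synthesis enzyme of red cell precursors (0.660, −2.13), NAP001637-001 (0.679, −2.30) and *Mbl2*, a mannose-binding lectin secreted by hepatocytes (0.842, −2.03).

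Beyond the 10 genes, 48 others of fatty acid and triglyceride synthesis were read, of which 45 were tested. Of these, 11 were lower, 7 were higher and 27 did not pass, with a median log2 fold change of −0.16 and no overlap between the genotypes for 15 genes. Over all genes, 34.2% passed and 36.6% did not overlap. The plot of these genes by role shows that the changes of largest size were those of a desaturase and an elongase.

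**Figure D3:**
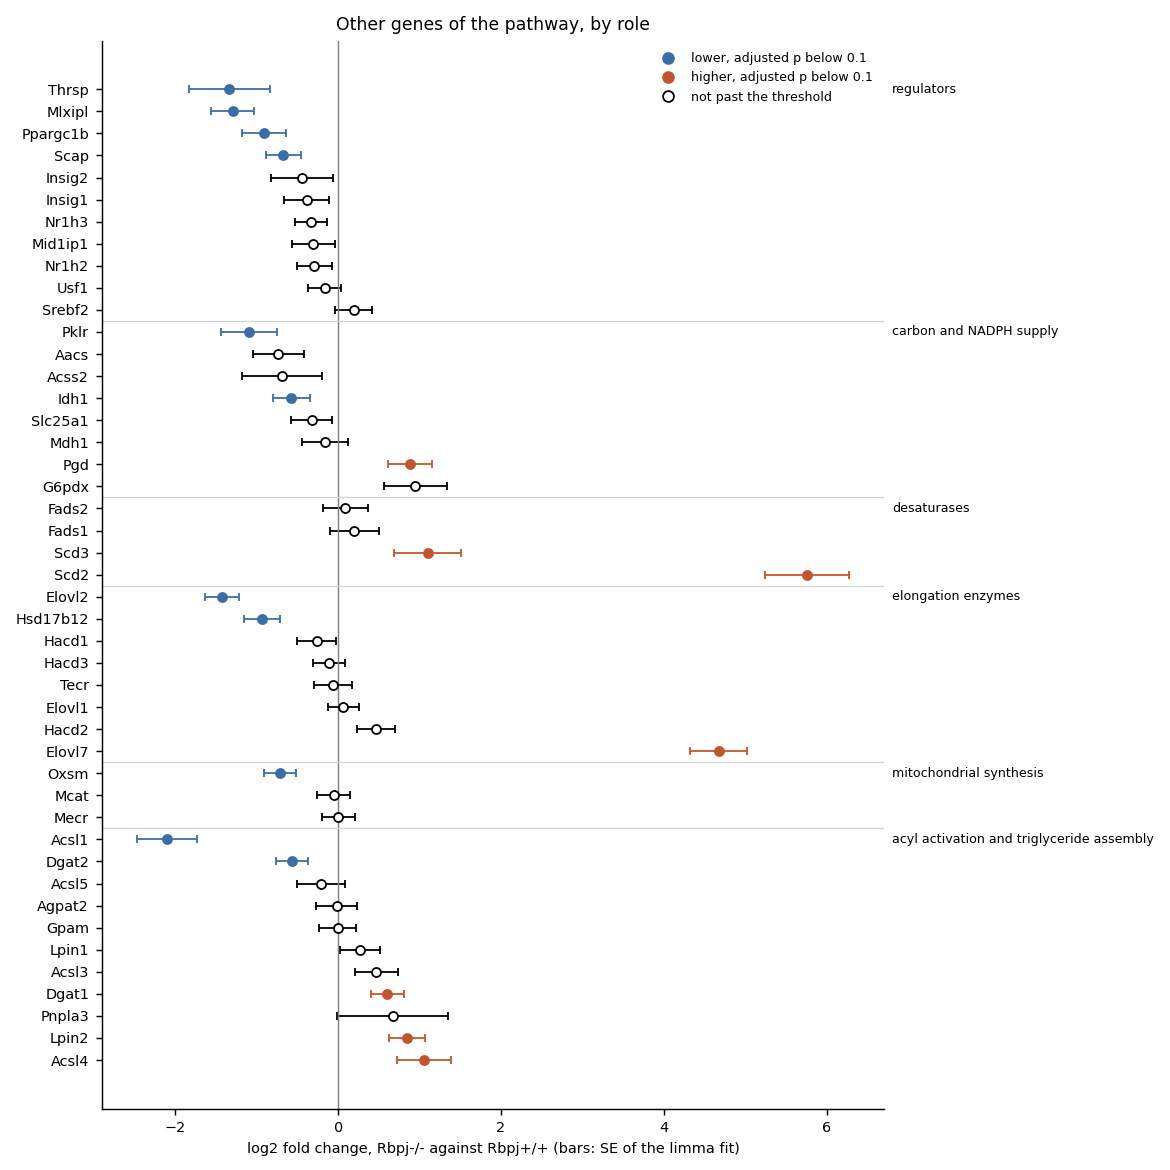
Log2 fold change of *Rbpj*-/- against *Rbpj*+/+ liver for the 45 tested genes of the wider pathway, grouped by role, with bars for the standard error of the limma fit. Filled points passed an adjusted p of 0.1. *Scd2* and *Elovl7* stand at 5.76 and 4.67, and the other 43 genes lie between −2.10 and 1.10.

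*Scd2*, a stearoyl-CoA desaturase known from brain and from liver around birth, was higher in *Rbpj*-/- liver. Its intensities were 132, 63.4, 41.3 and 175 in the *Rbpj*+/+ animals and 4316, 9140 and 12455 in the *Rbpj*-/- animals (A_51_P129464, mm9 chr19:44381024-44381083). The lowest *Rbpj*-/- animal lay far above the highest *Rbpj*+/+ animal, with a log2 fold change of 5.76 ± 0.51 (SE), 54.0-fold, an adjusted p of 0.000437 (limma) and an exact permutation p of 0.0286. *Scd3* gave 1.10 ± 0.41 (SE, adjusted p = 0.0833, limma) on its brightest probe and −0.44 (adjusted p = 0.480, limma) on another tested probe, so that its direction was not settled, and *Scd4* was above background on no array. The fatty acid desaturases of polyunsaturated chains did not pass on their brightest probes, with 0.20 ± 0.31 (SE) for *Fads1* and 0.09 ± 0.27 (SE) for *Fads2*, while a dimmer *Fads2* probe gave 0.75 (adjusted p = 0.0555, limma).

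*Elovl7*, an elongase of long chains, was higher as well. Its intensities were 14.7, 13.6, 12.3 and 10.8 in the *Rbpj*+/+ animals, where the probe was still above background on all 4 arrays, and 570, 948 and 290 in the *Rbpj*-/- animals (A_52_P354682, mm9 chr13:109073556-109073615). The log2 fold change was 4.67 ± 0.35 (SE), 25.5-fold, with an adjusted p of 0.000229 (limma). Its size varied with the background correction, as normexp correction gave 2.68 (adjusted p = 0.000265, limma). *Elovl2*, which elongates polyunsaturated chains beyond the products of *Elovl5*, read 7.13, 7.01, 7.39 and 6.90 against 5.50, 5.55 and 5.98 and was lower by −1.43 ± 0.21 (SE, adjusted p = 0.00309, limma). *Elovl1* gave 0.06 ± 0.19 (SE, adjusted p = 0.831, limma), and *Elovl4* was above background on 1 of the 7 arrays. The elongases split into *Elovl2* and *Elovl3* as lower, *Elovl7* as higher, and *Elovl1*, *Elovl5* and *Elovl6* not past the threshold.

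**Figure D4:**
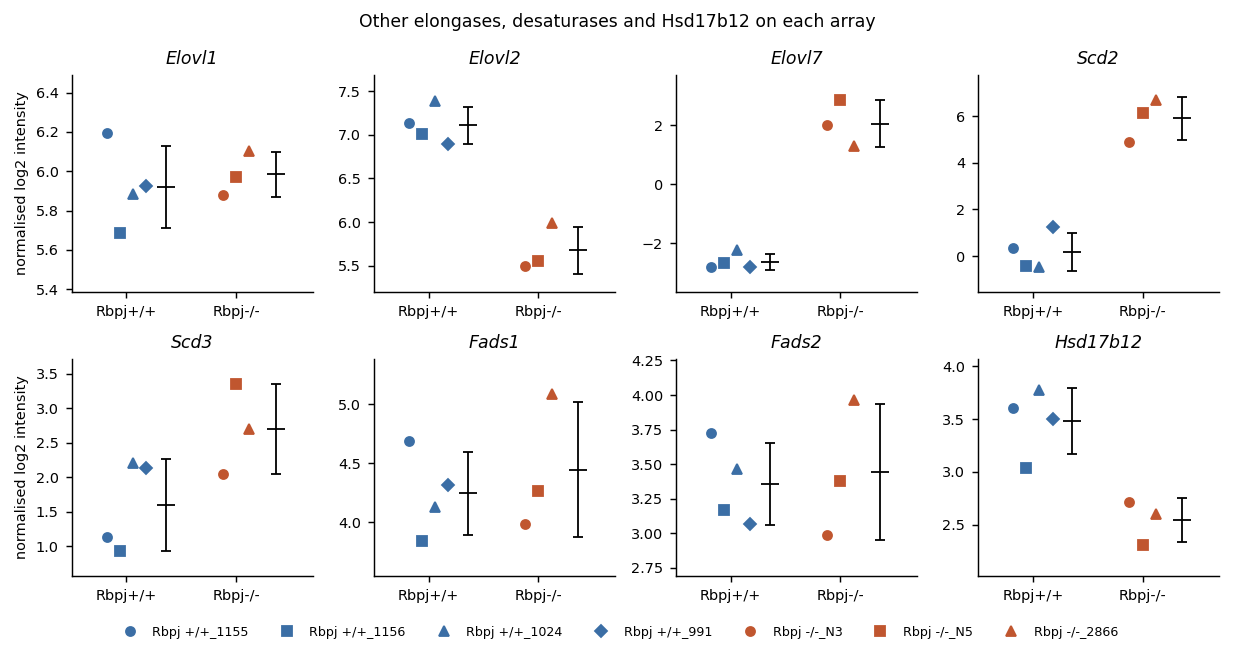
Level of other elongases, desaturases and the reductase *Hsd17b12* on each array, as log2 intensity minus the 75th percentile of the array, with blue symbols for *Rbpj*+/+ and orange symbols for *Rbpj*-/- animals and black bars for the mean ± SD. Each panel has its own scale. *Elovl2*, *Elovl7*, *Scd2* and *Hsd17b12* do not overlap between the genotypes, whereas *Elovl1*, *Fads1* and *Fads2* do.

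The remaining steps of the elongation cycle are served by enzymes shared among all elongases. Of these, the ketoacyl reductase *Hsd17b12* was lower by −0.94 ± 0.23 (SE, adjusted p = 0.0205, limma), while *Tecr*, *Hacd1*, *Hacd2* and *Hacd3* did not pass, at −0.07, −0.26, 0.46 and −0.11 on their brightest probes. A dimmer *Hacd2* probe (A_52_P299053) was higher by 0.77 (adjusted p = 0.0562, limma). *Oxsm*, the condensing enzyme of mitochondrial synthesis, was lower by −0.71 (adjusted p = 0.0311, limma). A dimmer *Oxsm* probe (A_52_P231635) gave −0.54 (adjusted p = 0.152, limma) and did not pass.

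Of 11 tested regulators, 4 were lower and none was higher on the brightest probe, with a median of −0.39, while 34.2% of all genes passed and 19.6% were lower. A dimmer probe of *Srebf2* (A_55_P2000487) was higher by 1.48 (adjusted p = 0.00214, limma), and its brightest gave 0.19 (adjusted p = 0.574). *Mlxipl*, which encodes the carbohydrate-responsive factor ChREBP, read 6.47, 6.73, 6.68 and 6.61 in *Rbpj*+/+ and 4.99, 5.03 and 5.97 in *Rbpj*-/- animals. Its log2 fold change was −1.29 ± 0.26 (SE, adjusted p = 0.0106, limma). A dimmer *Mlxipl* probe (A_55_P2045158) gave −0.75 (adjusted p = 0.0988, limma), with overlapping groups. *Scap*, which escorts the SREBP precursors, was lower by −0.67 (adjusted p = 0.0524, limma). *Thrsp*, a lipogenic protein induced by thyroid hormone, was lower by −1.34 (adjusted p = 0.0845, limma), with overlapping groups. The coactivator *Ppargc1b* was lower by −0.91 (adjusted p = 0.0437, limma) on a dim probe. Its intensities were 22.8, 23.6, 9.82 and 20.9 against 23.7, 11.5 and 15.3, well above background on 3 of 4 *Rbpj*+/+ arrays. The calls of *Scap*, *Thrsp* and *Ppargc1b* were lost under quantile normalisation and in other settings. *Thrsp* lost its call in 9 of 18 alternatives, *Scap* in 8 of 18 and *Ppargc1b* in 6 of 17. *Pklr*, the liver pyruvate kinase and a known target of ChREBP, was lower by −1.09 (adjusted p = 0.0483), and *Idh1*, an NADPH source, by −0.57 (adjusted p = 0.0961), whereas *Pgd* of the pentose phosphate pathway, another NADPH source, was higher by 0.88 (adjusted p = 0.0448). The call of *Idh1* was lost in 9 of 18 alternatives, that of *Pklr* in 4 and that of *Pgd* in 3.

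Among 11 tested genes that activate fatty acids or assemble triglyceride, 2 were lower and 3 were higher, against 19.6% and 14.6% of all genes. The acyl-CoA synthetases went in opposite directions, as *Acsl1* read 8.13, 7.87, 8.52 and 8.55 against 5.53, 5.88 and 7.09 (−2.10 ± 0.37, SE, adjusted p = 0.00602, limma) and *Acsl4*, which prefers arachidonate, was higher by 1.05 ± 0.33 (SE, adjusted p = 0.0486, limma). Of the diacylglycerol acyltransferases, which make triglyceride, *Dgat2* was lower by −0.57 (adjusted p = 0.0631) and *Dgat1* higher by 0.60 (adjusted p = 0.0648). *Lpin2*, a phosphatidate phosphatase, was higher by 0.84 (adjusted p = 0.0272). The *Dgat2* value was −0.19 (not passed) under quantile normalisation, and of 18 alternatives 10 ended the call of *Dgat2*, 6 that of *Dgat1*, 3 that of *Acsl4* and 2 that of *Lpin2*.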

How the data were processed

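RNA of whole liver from 7 mice was hybridised to 1-colour Agilent arrays, 1 array per animal and without pooling. The deposited intensity values are background-subtracted signals of single spots, which the authors extracted with Agilent Feature Extraction 10.7.3.1 per the submitters' processing notes, without normalisation between arrays. The authors also deposited a series matrix of log2 values derived from these signals. It correlated across probes at r = 1.00 with quantile-normalised values centred on the probe median (array medians 0 to −0.0039), while the methods state a percentile shift, and it served as an alternative only.

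Here, control probes were dropped, as were spots that the scanner software had flagged for uneven signal or as outliers among replicate spots (146 probe values). Log2 signals were averaged over the spots of a probe and shifted by the array's 75th percentile. No spot was saturated. Testing required that in at least 1 genotype every array had called the probe positive, significant and well above background (24547 of 55681 probes). The genotypes were set against each other over all 7 arrays by limma 3.58.1 (R 4.3.3), with Benjamini-Hochberg adjustment over all tested probes and a threshold of 0.1. Limma stands in for the shrinkage t statistic of the methods. The tested probe with the highest mean level reads a gene. Exact two-sided permutation tests used the 35 splits of 4 and 3 animals. The number of arrays limits the precision. Steps were tested on simulated data.

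The genes named are the 10 genes, *Rbpj*, the other pathway genes past the threshold, every other elongase and desaturase, and the 3 genes most like each called member; other genes in the text were named after their values were seen. The members and lists were chosen with earlier results of these data known. Names follow the array, of whose probes 28331 matched RefSeq by accession and 2209 by symbol. Probes are placed on mm9, as in the design of the array, and promoter windows on GRCm38.p6, as in RefSeq. Exon and UTR positions were not analysed here. The alternatives were normexp background correction (offset 50), quantile normalisation, a 75th percentile taken from probes detected everywhere, testing of dim probes too, testing of probes detected everywhere only, outlier spots kept, array weights, limma-trend, a stricter threshold (0.05), a gene's probes averaged, the series matrix, and each animal left out. Python 3.11.15, pandas 2.3.3 and matplotlib 3.10.9 made the promoter tables and figures.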

Additional observations from a re-analysis of the deposited data

Results flagged for a closer look

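In the *Rbpj*+/+ group of 4 animals, 5 of 39 probes examined had 1 animal whose gap to the nearest of the others exceeded Dixon's 95% critical value, and chance flags about 1 in 20 such groups. The dimmer *Acly* probe A_55_P2082914 read −2.25 in Rbpj +/+_1155, and −0.41 to −0.10 in the other animals. *Elovl6* read 4.84 in Rbpj +/+_1024, and 4.07 to 4.15 in the others. Rbpj +/+_1156, whose array had brighter dim probes, was the lowest for *Scap* (6.01, against 6.19 to 6.20), *Idh1* (2.87, against 3.46 to 3.51) and *Dgat2* (8.24, against 8.51 to 8.55).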

How the results depend on the processing

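The fitted log2 value of *Elovl3* lay between −10.39 and −5.28 under the 17 alternatives that tested it. As the probe was at background in *Rbpj*-/- liver, these are neither measured sizes nor bounds, and detection on all 7 arrays removed the gene. *Me1* lay between −2.76 and −1.41 and lost its call only without the filter on dim probes (adjusted p = 0.167). *Acacb* lay between −2.55 and −1.57 and lost its call there (adjusted p = 0.185) and without Rbpj -/-_N3 or Rbpj -/-_N5. Among the 10 genes, 5 passed under normexp (2 higher, 3 lower) and limma-trend (1 higher, 4 lower), 1 without the filter and 2 to 4 with each animal left out. Of the other pathway genes 4 passed without the filter and 9 to 18 with each animal left out, the lowest without Rbpj -/-_N5. Over all genes, 1648 of 35651 passed without the filter, and 3721 (without Rbpj -/-_N5) to 7108 with each animal left out, 4272 without Rbpj +/+_1024. The causes of these shifts were not tested, except that no filter adds dim probes to the fit. Quantile normalisation gave 3115 higher and 2852 lower genes, against 2741 and 3671.

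Small differences changed sign. *Acly* became positive under normexp (0.21), quantile normalisation (0.20), the percentile over detected probes (0.022) and the series matrix (0.20), and ranged from −0.31 to 0.20 with each animal left out. *Acaca* became positive under the same settings (0.15, 0.12, 0.011 and 0.12) and with array weights (0.10), and ranged from −0.29 to 0.27 with each animal left out. With each animal left out, *Elovl6* ranged from −0.10 to 0.35, *Fads1* from −0.12 to 0.43, *Fads2* from −0.17 to 0.31 and *Elovl1* from −0.015 to 0.15. *Srebf1* passed under normexp, the percentile over detected probes, limma-trend and without Rbpj +/+_991, and *Elovl5* in 5 settings. No paired analysis was possible because the genotypes share no animal or replicate number.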
